A study of Mus musculus with 2 samples.

Results

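The mouse genome holds the microRNAs let-7a, let-7c and let-7f at a pair of loci each, and each pair encodes 1 mature sequence on its 5p arm. The 6 genes of these pairs, Mirlet7a-1, Mirlet7a-2, Mirlet7c-1, Mirlet7c-2, Mirlet7f-1 and Mirlet7f-2, were taken by gene symbol from 2202 miRNA genes counted by microRNA sequencing. The libraries held RNA of under 30 nt from left cerebral cortex, taken at 2 months of age from male mice of the B6CASTF1/J strain, an F1 cross between C57BL/6J and CAST/EiJ. They formed 1 group of 2 libraries, and library 1 came from the animal numbered male 3 and library 2 from male 4. The labels name no treatment and no engineered allele, and they give both samples the same donor identifier, so that the animals differ rests on the animal and replicate numbers. Values are sense-strand read counts per gene and CPM, in which a gene's count is scaled to a library of 1000000 such reads. With n = 2, each SD rests on 2 values.

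let-7 genes are transcribed as long precursors from which Drosha and then Dicer cut a short hairpin and its arms. One arm, for let-7 mostly the 5p arm, is loaded into Argonaute, and its seed, bases 2 to 8, pairs with target mRNAs. The family is low in stem cells, where LIN28 proteins block its maturation, and high in differentiated tissue such as the adult brain. Because the copies of a pair yield the same 5p miRNA, a read of that miRNA alone does not show which locus it came from.

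The 5p arms are printed because they are what the copies share, with the seed in capitals. They are RefSeq sequences for the GRCm38.p6 assembly, the assembly also called mm10, and are written 5′ to 3′.
let-7a-5p: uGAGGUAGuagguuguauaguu
let-7c-5p: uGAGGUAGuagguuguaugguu
let-7f-5p: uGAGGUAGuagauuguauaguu
All 3 carry the seed GAGGUAG and are 22 bases long. Counted from the 5′ end, let-7a-5p differed from let-7c-5p by A19G and from let-7f-5p by G12A. let-7c-5p differed from let-7f-5p by G12A and G19A.

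The 3p arms are printed because they are where the copies of a pair differ, and capitals mark the bases that differ from the arm of the other copy.
let-7a-1-3p: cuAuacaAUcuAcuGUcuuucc
let-7a-2-3p: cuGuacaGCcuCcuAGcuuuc
let-7c-1-3p: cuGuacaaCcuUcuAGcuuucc
let-7c-2-3p: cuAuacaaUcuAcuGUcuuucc
let-7f-1-3p: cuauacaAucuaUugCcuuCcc
let-7f-2-3p: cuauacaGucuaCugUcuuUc
The let-7a arms differed at 6 positions (A3G, A8G, U9C, A12C, G15A and U16G, copy 1 to copy 2). The let-7c arms differed at 5 positions (G3A, C9U, U12A, A15G and G16U), and the let-7f arms at 4 (A8G, U13C, C16U and C20U). let-7a-1-3p and let-7c-2-3p were the same sequence, so Mirlet7a-1 and Mirlet7c-2 share an arm across families. The 3p seeds were UAUACAA in Mirlet7a-1, Mirlet7c-2 and Mirlet7f-1, UGUACAG in Mirlet7a-2, UGUACAA in Mirlet7c-1 and UAUACAG in Mirlet7f-2.

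The hairpins show how much of each gene is its own. They are the GENCODE M21 transcripts, which equalled the RefSeq hairpins for 6 of 6 genes, and capitals mark bases inside a 22-base window that also occurs at another genomic place in an annotated miRNA hairpin. A place is a genomic position, so genes that overlap on opposite strands, such as Mirlet7f-1 and Gm24111, count as 1 place.
Mirlet7a-1: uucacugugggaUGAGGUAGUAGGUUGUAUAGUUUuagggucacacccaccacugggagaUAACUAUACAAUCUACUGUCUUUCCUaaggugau
Mirlet7a-2: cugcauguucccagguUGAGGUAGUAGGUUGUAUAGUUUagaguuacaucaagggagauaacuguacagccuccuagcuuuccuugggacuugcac
Mirlet7c-1: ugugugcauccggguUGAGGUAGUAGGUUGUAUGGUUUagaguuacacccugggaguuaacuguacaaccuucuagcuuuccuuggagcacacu
Mirlet7c-2: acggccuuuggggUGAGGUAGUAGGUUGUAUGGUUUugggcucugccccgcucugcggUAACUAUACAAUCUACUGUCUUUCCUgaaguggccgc
Mirlet7f-1: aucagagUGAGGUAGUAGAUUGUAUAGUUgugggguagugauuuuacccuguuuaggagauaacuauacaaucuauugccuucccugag
Mirlet7f-2: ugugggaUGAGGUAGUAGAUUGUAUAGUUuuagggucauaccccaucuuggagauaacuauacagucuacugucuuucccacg
Of the 94 bases of Mirlet7a-1 and the 95 bases of Mirlet7c-2, 49 lay in such a window, against 23 in Mirlet7a-2 and Mirlet7c-1 and 22 in Mirlet7f-1 and Mirlet7f-2. The longest stretch common to Mirlet7a-1 and Mirlet7a-2 was 23 bases, the 5p arm and the base after it, and Mirlet7c-1 and Mirlet7c-2 also shared 23. Mirlet7f-1 and Mirlet7f-2 shared 22 bases, which are exactly the 5p arm. Mirlet7a-1 and Mirlet7c-2 shared 26 bases around their common 3p arm, the longest stretch among the 6 hairpins. Aligned end to end, the copies of a pair were not the most alike. Identity was 70.2% for the let-7a copies, 68.3% for the let-7c copies and 73.1% for the let-7f copies, whereas Mirlet7a-2 and Mirlet7c-1 reached 80.0%, as did Mirlet7a-1 and Mirlet7f-2.

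**Figure D1:**
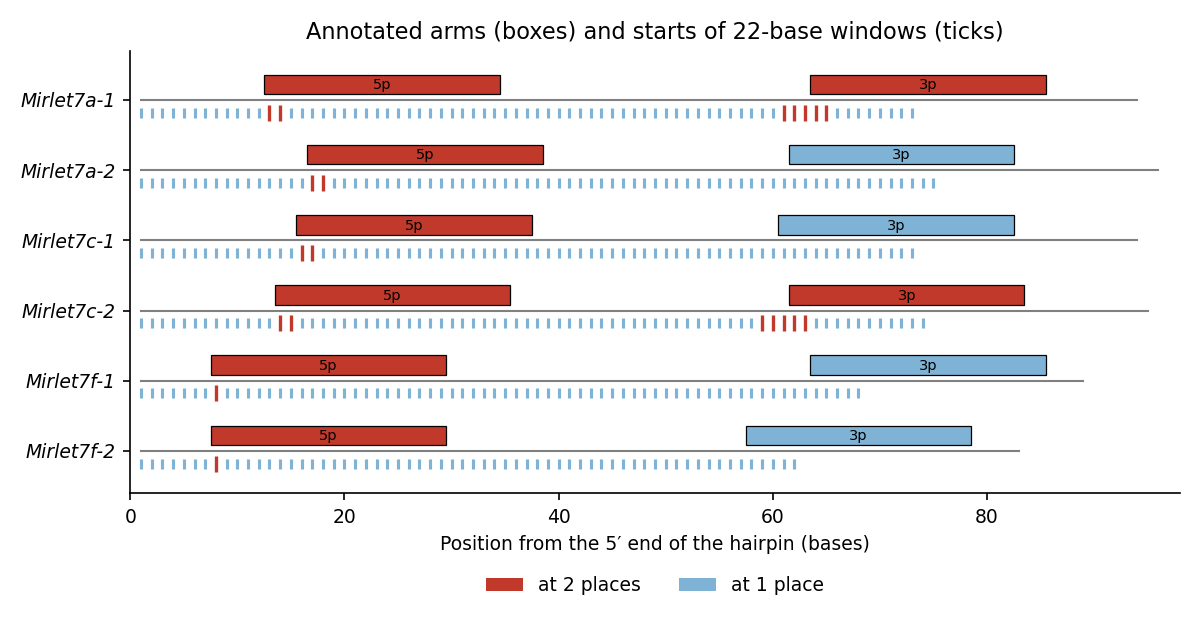
Map of the 6 hairpins, with the position from the 5′ end in bases on the x axis and 1 gene in each row; boxes are the annotated 5p and 3p arms, and each tick is the start of a 22-base window. Red marks arms and windows found at 2 places among the annotated hairpins and blue those found at 1; every 5p arm is red, and the 3p arm is red in Mirlet7a-1 and Mirlet7c-2.

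Most windows of the hairpins were nevertheless unique among the 2202 annotated hairpins, searched on both strands. Of 425 windows of 22 bases in the 6 genes, 405 (95.3%) occurred at 1 place. The share was lowest in Mirlet7a-1 (66 of 73 windows, 90.4%) and Mirlet7c-2 (67 of 74, 90.5%). It was 97.3% in Mirlet7a-2 and in Mirlet7c-1, 98.5% in Mirlet7f-1 and 98.4% in Mirlet7f-2. In the 6 let-7 genes with no second copy (Mirlet7b, Mirlet7d, Mirlet7e, Mirlet7g, Mirlet7i and Mir98), every such window and both arms occurred at 1 place. The closest match elsewhere of their 5p arms was 1 mismatch away for Mirlet7b, Mirlet7e and Mirlet7i, and 2 for Mirlet7d, Mirlet7g and Mir98. The 3p arm occurred at 1 place in Mirlet7a-2, Mirlet7c-1, Mirlet7f-1 and Mirlet7f-2. Its closest match elsewhere was 2 mismatches away for Mirlet7a-2 (in Mirlet7c-1), Mirlet7c-1 (in Mirlet7a-2) and Mirlet7f-1 (in Mirlet7b), and 1 mismatch away for Mirlet7f-2 (in Mirlet7a-1). The rest of the genome was not searched.

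The count tables hold 11372894 reads in library 1 and 12980686 in library 2, of which 33.7% and 35.1% lay on the sense strand of miRNA genes. Reads that mapped to several places made up 41.7% and 41.1%, 4743316 and 5338530 reads, and the layout of the tables gives them to no gene. In that layout, a count at a let-7 copy is a read placed at that locus alone, so the counts below are not the amount of mature let-7a, let-7c or let-7f. In these bulk samples, fewer cells of a type and less RNA per cell cannot be told apart. miRNAs typical of neurons summed to 77660 and 52536 CPM, with 9 of 12 genes at 10 or more reads in both libraries. The neuronal Mir124a-1, Mir124a-2 and Mir124a-3, a set of copies with a common mature sequence, had 18 or fewer reads each. Those of oligodendrocytes summed to 4981 and 3468 CPM (3 of 3 genes), and Mir29a of astrocytes had 12547 and 8703 CPM. Microglia and leukocyte miRNAs summed to 1352 and 1065 CPM (2 of 3 genes). Most of that was Mir150, with a mean of 1155 CPM, against 44.3 CPM for Mir142 and 8.85 CPM for Mir223. Endothelial Mir126a had 8100 and 11825 CPM, and hepatic Mir122 had 72.4 and 78.6 CPM. The 3 red blood cell miRNAs summed to 134 CPM in library 1 and 1549 CPM in library 2.

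Together, the 6 paired genes had 22056 reads in library 1 and 28847 reads in library 2. That was 0.576% of the sense-strand miRNA reads in library 1 (Wilson 95% interval 0.569 to 0.584) and 0.634% in library 2 (0.626 to 0.641), with a mean of 0.605% ± 0.0405 (SD, n = 2). Intervals and floors here cover the counting error of reads only. The reads carry no stated molecular identifiers, so they are not known to be separate molecules. Against the multi-mapped tally, the paired genes had 0.465 reads per 100 multi-mapped reads in library 1 and 0.540 in library 2, a mean of 0.503 ± 0.0533 (SD, n = 2). For each read placed at a paired let-7 gene there were thus 215 and 185 multi-mapped reads. The tally covers the whole library and is not split by sequence, so how many of its reads were let-7 is not given by the tables.

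The single-locus let-7 genes were counted in the same libraries. The 6 paired genes had 1.97 and 1.85 reads per 100 reads of the 6 single-locus genes, which had 1121245 reads in library 1 and 1555924 in library 2. The single-locus genes thus took 29.3% and 34.2% of the sense-strand reads. Their means ran from 3922 ± 671 CPM for Mir98 and 35299 ± 960 CPM for Mirlet7e to 103234 ± 17603 CPM for Mirlet7g (SD, n = 2). Each of the 6 paired genes had fewer reads than each of the single-locus genes in both libraries. Per base of hairpin Mirlet7f-2 averaged 38.4 CPM and Mir98 36.3 CPM, with hairpins of 83 and 108 bases. Reads of under 30 nt cover a part of a hairpin, so their number need not scale with its length. The order per base therefore rests on the division, since Mirlet7f-2 had fewer reads than Mir98 in both libraries.

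**Figure D2:**
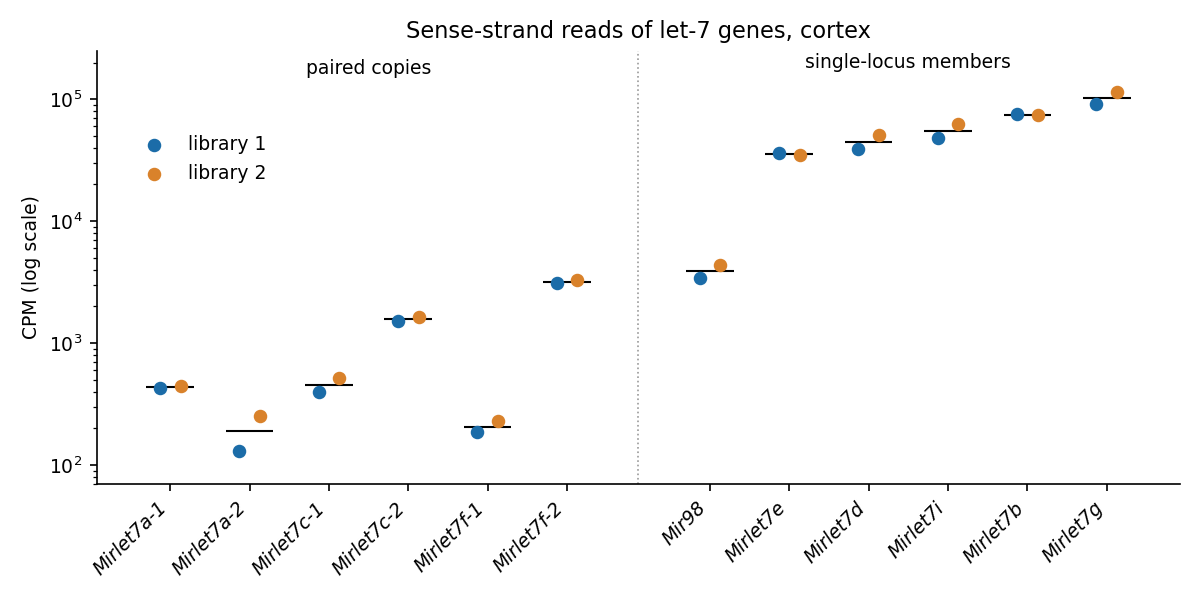
Sense-strand reads of the 6 paired let-7 genes (left) and the 6 single-locus members (right) in CPM on a log scale; points are the libraries and bars their means. The paired genes run from 130 CPM (Mirlet7a-2, library 1) to 3263 CPM (Mirlet7f-2, library 2), and the single-locus genes from 3447 CPM (Mir98, library 1) upward.

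Among the paired genes, levels ran from rank 170 for Mirlet7a-2 to rank 51 for Mirlet7f-2 among all miRNA genes. Mirlet7a-1 (ENSMUSG00000065421.3, chr13:48538179-48538272, minus strand) had 1651 reads in library 1 and 2026 in library 2. Its level was 431 and 445 CPM, a mean of 438 ± 9.59 CPM (SD, n = 2), and it varied least between the libraries. Mirlet7a-2 (ENSMUSG00000092770.1, chr9:41536716-41536811, plus strand) had 496 and 1157 reads, or 130 and 254 CPM, with a mean of 192 ± 88.0 CPM (SD, n = 2). Library 1 was low for this gene, and its levels did not overlap with those of Mirlet7a-1.

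Mirlet7c-1 (ENSMUSG00000065557.3, chr16:77599657-77599750, plus strand) had 1510 and 2369 reads, or 395 and 520 CPM, with a mean of 457 ± 88.9 CPM (SD, n = 2). Mirlet7c-2 (ENSMUSG00000065608.1, chr15:85706603-85706697, plus strand) had 5791 and 7399 reads, or 1513 and 1625 CPM, with a mean of 1569 ± 79.1 CPM (SD, n = 2). The second copy was the higher one in both libraries, without overlap. Mirlet7c-2 ranked second of the 6 paired genes although neither of its annotated arms occurs at a single place.

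Mirlet7f-1 (ENSMUSG00000105621.1, chr13:48537829-48537917, minus strand) had 710 and 1038 reads, or 186 and 228 CPM, with a mean of 207 ± 30.0 CPM (SD, n = 2). Mirlet7f-2 (ENSMUSG00000065602.1, chrX:151912346-151912428, plus strand) had 11898 and 14858 reads, or 3109 and 3263 CPM, with a mean of 3186 ± 109 CPM (SD, n = 2). It was the highest paired gene in both libraries and held 53.9% and 51.5% of the reads of all 6, ahead of Mirlet7c-2 with 26.3% and 25.6%. None of the 6 genes had a read on the opposite strand. In the column that ignores strand Mirlet7f-1, which Gm24111 overlaps on the plus strand, is listed at 0 in both libraries. The other 5 paired genes keep their counts there. The single-locus Mirlet7e, which Gm25927 overlaps on the opposite strand, is likewise listed at 0 in both libraries.

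Ordered by level per base of hairpin, the genes ran from Mirlet7a-2 (2.00 CPM per base) and Mirlet7f-1 (2.32) through Mirlet7a-1 (4.66) and Mirlet7c-1 (4.87) to Mirlet7c-2 (16.5) and Mirlet7f-2 (38.4). The order by CPM per gene was the same. Mirlet7a-2 and Mirlet7f-1 overlapped between the libraries, and their means differed by 14.9 CPM, less than the SD of 88.0 CPM of Mirlet7a-2. Mirlet7a-1 and Mirlet7c-1 also overlapped, differing by 19.2 CPM against an SD of 88.9 CPM. The other neighbours in the order did not overlap. Per base, Mirlet7a-1 was 2.01-fold above Mirlet7f-1, Mirlet7c-2 3.39-fold above Mirlet7c-1 and Mirlet7f-2 2.32-fold above Mirlet7c-2.

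Within a pair, the reads placed at 1 locus alone were split unevenly, and the copy with more of them differed by family. In the layout of the tables, reads of the shared 5p arm alone are not among them. The arms that can be placed also differ, since both arms of Mirlet7a-1 and Mirlet7c-2 occurred at 2 places. The shares are therefore not the output of the loci. In the let-7a pair the first copy, Mirlet7a-1, held 76.9% of the reads of both copies in library 1 (Wilson 95% interval 75.1 to 78.6) and 63.7% in library 2 (62.0 to 65.3), a mean of 70.3% ± 9.37 (SD, n = 2). In the let-7c pair Mirlet7c-1 held 20.7% in library 1 (19.8 to 21.6) and 24.3% in library 2 (23.4 to 25.1), a mean of 22.5% ± 2.52 (SD, n = 2). In the let-7f pair Mirlet7f-1 held 5.63% (5.24 to 6.05) and 6.53% (6.16 to 6.92), a mean of 6.08% ± 0.635 (SD, n = 2). In each pair, the intervals of the libraries did not overlap, and the higher copy was the same in both libraries. The let-7a split moved by more between libraries than the other splits did. In that pair Mirlet7a-2 had 130 and 254 CPM, whereas Mirlet7a-1 had 431 and 445 CPM.

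**Figure D3:**
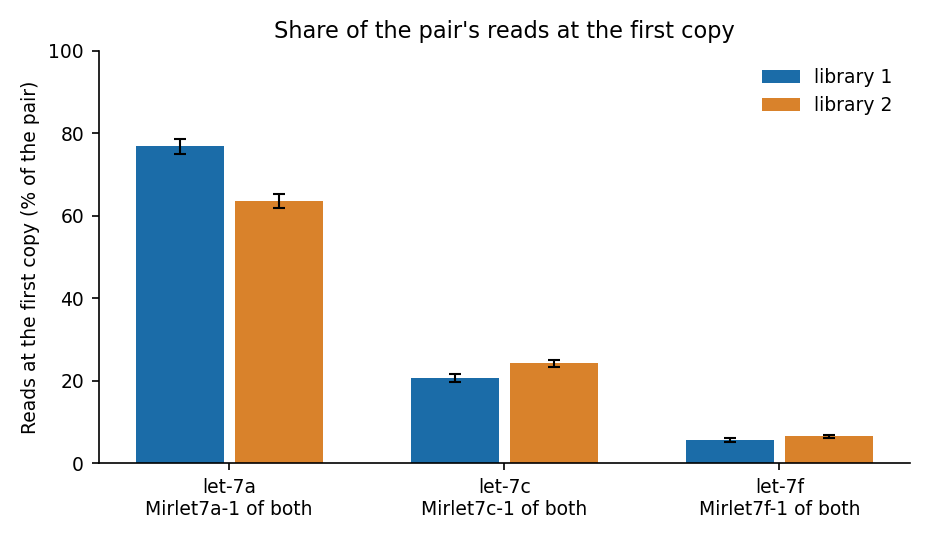
Reads placed at the first copy alone as a percentage of the reads so placed at both copies (y axis) for let-7a, let-7c and let-7f. Bars are library 1 (left) and library 2 (right) and whiskers are Wilson 95% intervals. Multi-mapped reads are not included. The first copy holds the larger share in let-7a (76.9% and 63.7%) and the smaller in let-7c (20.7% and 24.3%) and let-7f (5.63% and 6.53%).

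Summed over both copies, let-7f had 3393 ± 139 CPM, let-7c 2026 ± 168 CPM and let-7a 630 ± 97.6 CPM (SD, n = 2). The sums rank the families by locus-placed reads only. Among annotated miRNA genes, 51 pairs carry a mature sequence found at exactly 2 places, the pair of Mirlet7a-1 and Mirlet7c-2 with their common 3p arm included, and 19 of these pairs had no read in either library. In 26 pairs both libraries had 10 or more reads, with a median sum of 413 CPM and a median share of 78.3% at the higher copy. The let-7f pair was the third highest by sum, after Mir128-1 with Mir128-2 (12345 ± 6215 CPM) and Mir138-1 with Mir138-2 (7997 ± 1671 CPM), both abundant in neurons. Its higher copy held 93.9%, against 81.7% in the Mir128 pair and 65.5% in the Mir138 pair, and 8 of the 26 pairs exceeded 90%. The let-7c pair had rank 5 by sum with 77.5% at its higher copy, and the let-7a pair had rank 11 with 70.3%. The pair of Mirlet7a-1 and Mirlet7c-2 ranked between them with 78.2% at Mirlet7c-2. The share at the higher copy ran from 53.0% (Mir24-1 with Mir24-2) to 100% (Mir101a with Mir101c among others), and the let-7 splits lay within that range. The higher copy was picked from these same counts, so nearly any split would lie in it.

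**Figure D4:**
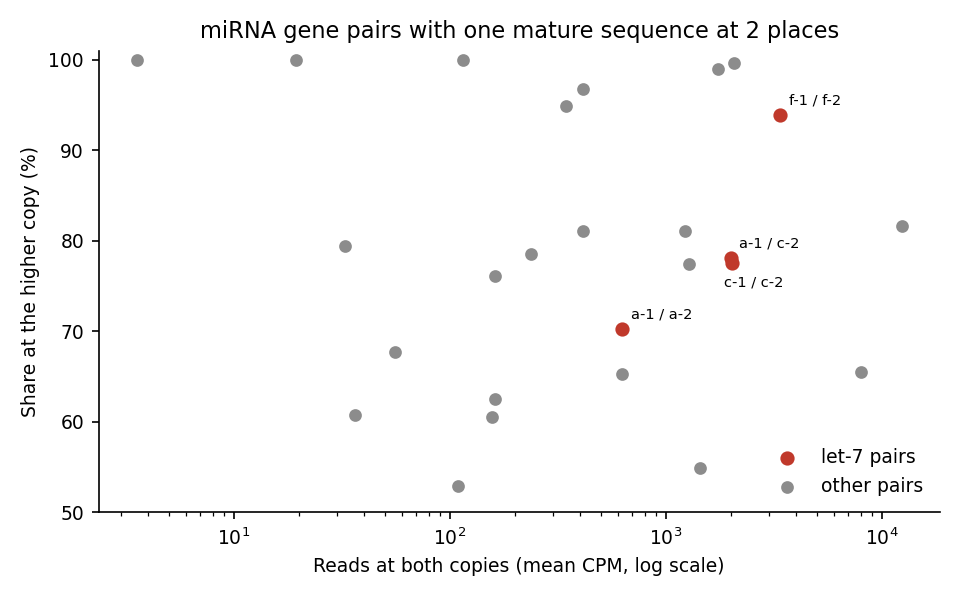
Sum of the reads at both copies (x axis, mean CPM, log scale) against the share of reads at the higher copy (y axis, %) for the 26 miRNA gene pairs with a mature sequence at exactly 2 places and 10 or more reads in both libraries. The let-7 pairs, in red, lie between 630 and 3393 CPM and between 70.3% and 93.9%.

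Both libraries belong to 1 group, so the difference between them describes these libraries and no condition. All 6 paired genes were lower in library 1 than in library 2, and 5 of 6 passed an exact two-sided binomial test that takes the library totals as given (Benjamini-Hochberg adjustment over 508 genes with 10 or more reads, threshold 0.05). That test holds counting error only and called 246 of the 508 genes (48.4%), and 118 (23.2%) in the direction of library 2. Among the 120 genes within the members' range of mean CPM it called 82.5%, and 36.7% in the direction of library 2. The 5 calls among 6 genes were therefore near the share of genes of like level, while all lay in 1 direction. With edgeR's exact test at a common dispersion, which allows for the spread between the libraries (biological coefficient of variation 33.3%), no paired gene passed, and none had an unadjusted p under 0.05. The dispersion was estimated from the same 2 libraries, so the differences tested are part of the spread they are set against. That test called 4 of the 508 genes (0.787%), and 25 had an unadjusted p under 0.05.

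Mirlet7a-2 differed most, at a log2 ratio of -0.97 for library 1 over library 2 (exact 95% interval -1.13 to -0.82; adjusted binomial p = 8.29e-38; edgeR unadjusted p = 0.172). Its partner Mirlet7a-1 had -0.04 (-0.14 to 0.05) and did not pass (adjusted binomial p = 0.478). Mirlet7c-1 had -0.40 (-0.49 to -0.31; adjusted binomial p = 1.30e-16) and Mirlet7f-1 -0.30 (-0.44 to -0.16; adjusted binomial p = 7.14e-05). The 2 highest genes moved little, with -0.10 (-0.15 to -0.05; adjusted binomial p = 0.000141) for Mirlet7c-2 and -0.07 (-0.10 to -0.04; adjusted binomial p = 0.000231) for Mirlet7f-2. The median log2 ratio was -0.20 over the 6 paired genes, -0.35 over the 6 single-locus genes and -0.01 over the 508 genes tested. Of the single-locus genes 6 of 6 were called, 4 higher in library 2 and 2, Mirlet7b and Mirlet7e, higher in library 1. Of the 3 red blood cell miRNAs, Mir451a (223 reads in library 1 and 6459 in library 2) and Mir144 (94 and 437) were higher in CPM in library 2, and Mir486 (195 and 158) was higher in library 1. Of the 12 neuronal miRNA genes 7 were higher in library 1, among them Mir132 (48515 and 30152 CPM) and Mir128-1 (13881 and 6392 CPM). The other 5 were higher in library 2, among them Mir138-1 (4434 and 6046 CPM) and Mir138-2 (2381 and 3132 CPM). The part of these in the let-7 differences was not tested.

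Each paired gene lies in an annotated longer transcript, and 5 clusters hold all 6. On chromosome 13 Mirlet7a-1 and Mirlet7f-1 lie 261 bases apart in an exon of the long non-coding RNA 6720427I07Rik, with the single-locus Mirlet7d 2064 bases from Mirlet7a-1 and 1714 from Mirlet7f-1. Mirlet7a-1 had 1.11 and 0.876 CPM per 100 CPM of Mirlet7d in libraries 1 and 2, and Mirlet7f-1 had 0.477 and 0.449. Per base of hairpin the values were 1.22 and 0.959 for Mirlet7a-1 and 0.552 and 0.519 for Mirlet7f-1. The log2 ratios of library 1 over library 2 were -0.04 for Mirlet7a-1 and -0.30 for Mirlet7f-1, against -0.39 for Mirlet7d.

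Mirlet7a-2 lies on chromosome 9 in introns of the non-coding 3110039I08Rik and Gm49317, 5211 bases from Mir100 and 45114 from Mir125b-1. Per base it had 3.96 and 6.19 CPM per 100 CPM of Mir100, and 11.0 and 19.7 per 100 of Mir125b-1. The log2 ratios were -0.97 for Mirlet7a-2, -0.33 for Mir100 and -0.13 for Mir125b-1, and their differences were not tested. On chromosome 16 Mirlet7c-1 lies in an intron of Mir99ahg, 656 bases from Mir99a and 46522 from Mir125b-2. Per base it had 2.98 and 3.11 CPM per 100 CPM of Mir99a, close to the same in both libraries, and 86.3 and 169 per 100 of Mir125b-2. The log2 ratios were -0.40 for Mirlet7c-1, -0.34 for Mir99a and 0.57 for Mir125b-2, which went the other way.

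On chromosome 15 an exon of the non-coding Lncppara contains Mirlet7c-2, 621 bases from Mirlet7b. Per base it had 1.79 and 1.97 CPM per 100 CPM of Mirlet7b, and the log2 ratios were -0.10 for Mirlet7c-2 and 0.03 for Mirlet7b. Mirlet7f-2 lies on the X chromosome in an intron of Huwe1, which encodes a ubiquitin ligase, 785 bases from Mir98. Per gene it had 90.2 CPM per 100 CPM of Mir98 in library 1 and 74.2 in library 2, and per base of hairpin 117 and 96.6. This was the one cluster in which the paired copy and its single-locus neighbour had like counts of reads placed at the locus alone. The 5p arm of Mirlet7f-2 occurred at 2 places and both arms of Mir98 at 1, so these counts do not cover like parts of the genes. In the other 4 clusters a paired gene had at most 7.42 CPM per 100 CPM of its neighbour within 10 kb (6.19 per base). Mirlet7a-1 and Mirlet7f-1 against each other are left aside here. In every cluster the paired 5p arm occurred at 2 places, so the ratios compare placed reads and not amounts of mature miRNA.

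**Figure D5:**
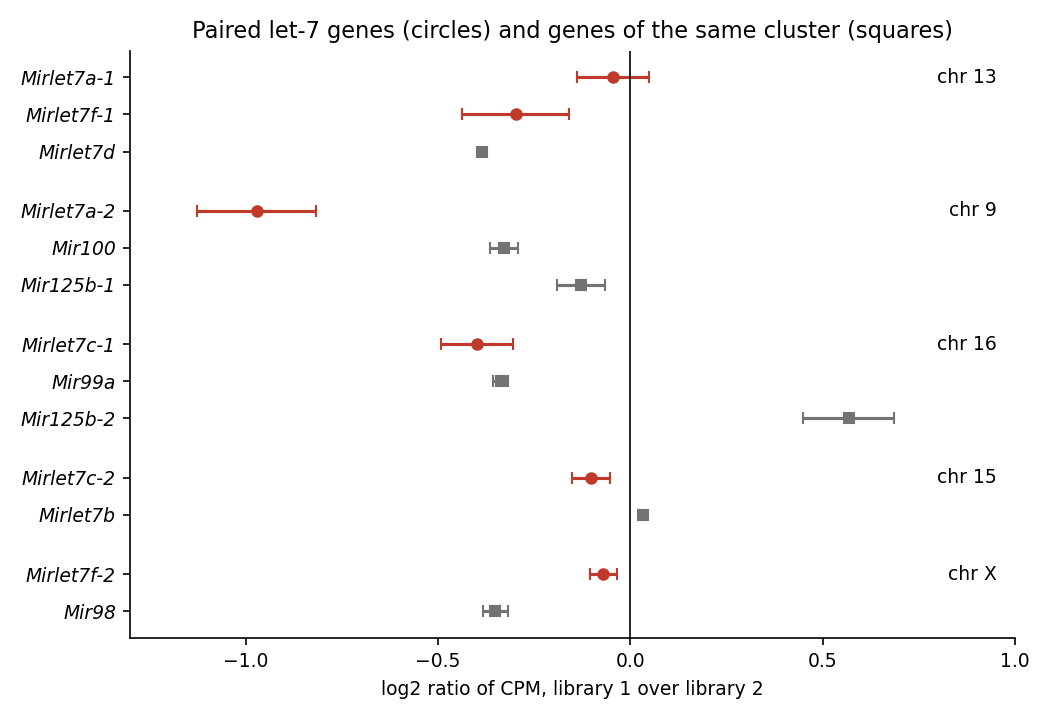
log2 ratio of CPM of library 1 over library 2 (x axis) for the paired let-7 genes (red circles) and miRNA genes of the same cluster (grey squares), grouped by chromosome; whiskers are exact 95% intervals for counting error. The 6 paired genes lie below 0, from -0.97 (Mirlet7a-2) to -0.04 (Mirlet7a-1), and Mir125b-2 lies at 0.57.

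The genes nearest to each member in log2(CPM + 1) over the 2 libraries, by Euclidean distance, were Mir204 (distance 0.04) and Gm23450 (0.06) for Mirlet7a-1, and Mir153 (0.22) and Mir184 (0.39) for Mirlet7a-2. Mirlet7c-1 was nearest to Mir17 (0.03) and Mir134 (0.09), and Mirlet7c-2 to Mir434 (0.19) and Mir760 (0.22). Mirlet7f-1 was nearest to Mir30c-1 (0.08) and Mir184 (0.22), and Mirlet7f-2 to Mir485 (0.07) and Mir100 (0.20). No paired gene had its partner copy among its 2 nearest genes. A likeness over 2 libraries rests on level and on 1 ratio.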

How the data were processed

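MicroRNA sequencing of 2 libraries from 1 group was analysed. For each library the authors deposited a table of raw read counts for miRNA genes in 3 columns (strand ignored, sense strand, opposite strand) with 4 tally rows. The build was mm10 with GENCODE M21, per the labels and the deposited descriptions. Which aligner and version were used, and how adapters were trimmed, is not given in the sources used here. The tables have the layout of STAR gene counts, in which a read mapped to several places goes to a tally and to no gene. The build is the C57BL/6J sequence, and reads of the CAST/EiJ allele that differ from it may have been placed less often.

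From the deposited counts, the sense-strand column was used, and the tally rows entered neither library sizes nor tests. Besides the multi-mapped reads they held 19.6% and 18.9% unmapped reads. A further 5.03% and 4.94% were mapped reads that lay on the sense strand of no counted miRNA gene. A floor of 3 counts was 0.784 and 0.659 CPM, and 1 CPM was the pseudocount on the log2 scale. Libraries were compared with an exact binomial test (scipy 1.17.1), because edgeR's quasi-likelihood test has no residual degrees of freedom once each library has its own coefficient. edgeR 4.0.16 gave the exact test with TMM factors, at a common dispersion estimated from both libraries as 1 group, and DESeq2 1.42.0 gave other size factors, in R 4.3.3. Windows and mature arms were searched in the GENCODE hairpins with Python 3.11.15. The binomial test was tried on simulated counts without spread between libraries, and edgeR's exact test on simulated counts with such spread. The first setting lacks the spread of these data, so it does not show how the binomial test behaves on them. Gene symbols matched for 2202 of 2202 identifiers. No genome sequence was used here, so the search covers hairpins only.

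The 6 genes and the lists were chosen with earlier results of these data known. The genes named are these 6, the 6 single-locus let-7 genes, miRNA genes of the same clusters, the 2 genes nearest in level to each, the 3 gene pairs with the largest sums and the marker lists. Gm24111 and Gm25927 were named after their values were seen. That the samples are separate animals rests on their numbers. Binomial p-values measure counting error alone, and edgeR's also the spread between these samples, which may be technical. Alternatives were another test, count minimum, scaling, column, denominator or window length, and leaving out each library.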

Additional observations from a re-analysis of the deposited data

Results flagged for a closer look

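Gm24111, a predicted miRNA gene on the plus strand of chromosome 13 (48537825 to 48537921), overlaps Mirlet7f-1 on the minus strand. It had no sense-strand read in either library. In the opposite-strand column, which no comparison here used, it had 710 entries in library 1 and 1038 in library 2, above the floor of 3 counts. These are the sense-strand counts of Mirlet7f-1, so the same reads are listed at both genes. Gm25927 overlaps the single-locus Mirlet7e on the opposite strand and also had no sense-strand read. Its opposite-strand entries, 137692 in library 1 and 157632 in library 2, are the sense-strand counts of Mirlet7e.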

How the results depend on the processing

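The direction of the difference between the libraries (lower in library 1) was kept by each paired gene under every scaling, count minimum and column that gave it a value. A count minimum cannot change a gene's ratio, and the column that ignores strand changed it through the library totals only. For Mirlet7a-1 the interval of the log2 ratio, -0.14 to 0.05, included 0. The binomial test called 5 genes each time, or 4 in the column that ignores strand. With edgeR's exact test 0 of the 6 were called, and 4 genes against 246 over all genes tested. The paired genes held 0.208% of all reads of the libraries and 0.274% of the sense-strand plus multi-mapped reads. The column that ignores strand lists Mirlet7f-1 at 0, and also the single-locus Mirlet7e, which had 137692 and 157632 sense-strand reads. Both sums therefore lose a gene in that column. The paired genes had 2.08 reads per 100 single-locus reads in it, and the first copy's share of the let-7f pair was 0%. With windows of 18 bases 84.0% were at 1 place, and with 25 bases 99.0%. Leaving out a library leaves the value of the other one. This gave 0.576 to 0.634% of sense-strand reads, 0.465 to 0.540 reads per 100 multi-mapped reads and 1.85 to 1.97 per 100 single-locus reads. First-copy shares were then 63.7 to 76.9% for let-7a, 20.7 to 24.3% for let-7c and 5.63 to 6.53% for let-7f. The causes were not tested beyond what each setting changes by construction. The search among annotated hairpins, planned as an alternative, is the value reported, and a search of the genome was not run. No paired analysis was possible because there is 1 group. In the layout of the tables, reads mapped to several places enter no level given for these genes. How many of them were let-7 is not given. Each of the 6 genes had 496 or more reads in each library, and the part of depth was not tested.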
